A study of Mus musculus with 13 samples.

Results

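The single array of the embryonic stem (ES) line B6 Blu was set against 10 arrays of other pluripotent mouse cells, row by row of the expression table. A row was a member when its B6 Blu value lay above the highest or below the lowest of the 10 values, and its distance to that nearest array is called the gap. Of 16661 rows, 2934 were members: 1799 lay above the range and 1135 below it. With 1 array on one side there is no measure of the spread of B6 Blu, so every statement on it is a description of that array and carries no test.

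Both sets of cells come from a study of induced pluripotent stem (iPS) cells made from fibroblasts of mice named for mucopolysaccharidosis type VII (MPSVII), in which the lysosomal enzyme β-glucuronidase, encoded by Gusb, is lost. The 10 reference arrays were 8 arrays of the iPS clones 1, 2, 5 and 6, with 2 arrays each, and 2 arrays of MPSVII ES cells. A further 2 arrays of MPSVII mouse embryonic fibroblasts (MEF) show the level of each row in a differentiated cell. The strain is given as C57Bl/6 for all lines except B6 Blu, for which it is C57BL/6NTac. Each clone came from 1 colony of fibroblasts transduced with the lentivirus OSK (Oct4, Sox2 and Klf4) and was then grown on layers of MEF feeder cells. The only growth text on the ES arrays is that same account of the clones, so the growth conditions of B6 Blu and of MPSVII ES, feeders included, are not known here. The labels disagree on genotype: titles and the design text name MPSVII for the clones and the fibroblasts, while their source and growth fields name wildtype B6 embryos. The names of the titles are used here. No label states the sex of a line or whether the 2 arrays of a line came from separate cultures.

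Mouse ES cells keep their pluripotent state through transcription factors such as Oct4 (encoded by Pou5f1), Sox2 and Nanog, and express many genes of the germ line at low to high levels. ES and iPS lines are often grown on a layer of fibroblasts, and cells that leave the pluripotent state can themselves take up actin filaments, matrix proteins and other features of mesenchymal cells. Bulk RNA does not tell these sources apart: more cells of a type and more RNA per cell give the same signal.

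Values are log2 signal from Mouse Exon 1.0 ST arrays, so a difference of 1 is a doubling of signal. The B6 Blu array had a median of 4.19 and an interquartile range of 1.95, within those of the 10 arrays (medians 3.97 to 4.23, interquartile ranges 1.70 to 2.39). Across rows it correlated with each of the 10 at r = 0.949 to 0.964, and with the MEF arrays at 0.851 to 0.870. Among the 10, r was 0.938 to 0.982, which includes the pairs of arrays of the same line (0.955 to 0.982). The 10 correlated with the MEF arrays at 0.803 to 0.850. These are correlations over rows, which are not independent of one another. As a check of the label, Pou5f1, Sox2 and Nanog were far above the fibroblasts on the B6 Blu array. Klf4 was not (5.73, with 5.75 and 5.62 in MEF). Pou5f1 was at 7.09, inside the range of the 10 (6.84, 7.70 and 8.17 for the lowest, median and highest array), and at 4.75 and 4.89 in MEF. Only the clone 2 arrays (6.95 and 6.84) were lower, and the MPSVII ES arrays were at 7.93 and 8.17. Sox2 was at 9.09, also inside (7.96, 8.73 and 9.79), and at 5.05 and 5.23 in MEF. Nanog lay below the range and is described with the other pluripotency genes.

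Most members lay just outside the range. B6 Blu was above the range in 10.8% of all rows and below it in 6.81%, but 2712 of the 2934 gaps were under 0.5, and the median gap was 0.13 above and -0.12 below. The median SD between the 2 arrays of a line was 0.24 over all rows, so the typical gap was smaller than the spread within a line. The account below therefore turns on the members at least 1 log2 unit outside the range: 25 rows above (0.15% of all rows), of which 21 carry a single gene symbol, and 13 below (0.078%), of which 10 do. No gap above the range reached 2, whereas 4 gaps below it did. At the threshold of 1, Anxa3 was just outside with a gap of 1.01 and Tpm1 just inside with 0.99 on the upper side, and Cyct (1.01) and Rnf125 (0.99) were the same on the lower side.

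The start regions of 5 of these genes are shown because their genes recur in the results below: 3 germ-line genes that were low on the B6 Blu array (Smc1b, Hormad1, Cyct) and 2 genes of contractile and stretched cells that were high (Acta2, Ankrd1). Each is the window from 250 bases before to 50 bases after the annotated start, 5′ to 3′ on the strand of the gene, from RefSeq on GRCm38.p6. Smc1b lies at chr15:85131908-85132207 (minus strand), Hormad1 at chr3:95559427-95559726 (plus), Cyct at chr2:76360404-76360703 (minus), Acta2 at chr19:34255324-34255623 (minus) and Ankrd1 at chr19:36119795-36120094 (minus). Capitals mark TCCCGC and CACGTG in the first 3 windows and CATTCC in the last 2, on either strand, so that GCGGGA and GGAATG are the same motifs read from the other strand.
Smc1b: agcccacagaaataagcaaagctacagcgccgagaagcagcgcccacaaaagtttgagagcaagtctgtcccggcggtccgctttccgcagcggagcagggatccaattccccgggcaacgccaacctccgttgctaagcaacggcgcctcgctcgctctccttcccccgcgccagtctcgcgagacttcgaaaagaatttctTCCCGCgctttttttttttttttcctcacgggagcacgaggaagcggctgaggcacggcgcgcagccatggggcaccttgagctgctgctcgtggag
Hormad1: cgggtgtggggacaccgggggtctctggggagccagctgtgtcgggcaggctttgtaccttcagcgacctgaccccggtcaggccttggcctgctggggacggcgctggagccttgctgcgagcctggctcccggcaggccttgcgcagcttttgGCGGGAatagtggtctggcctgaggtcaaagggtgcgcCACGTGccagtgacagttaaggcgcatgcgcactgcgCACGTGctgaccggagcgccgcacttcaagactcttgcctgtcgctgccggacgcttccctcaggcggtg
Cyct: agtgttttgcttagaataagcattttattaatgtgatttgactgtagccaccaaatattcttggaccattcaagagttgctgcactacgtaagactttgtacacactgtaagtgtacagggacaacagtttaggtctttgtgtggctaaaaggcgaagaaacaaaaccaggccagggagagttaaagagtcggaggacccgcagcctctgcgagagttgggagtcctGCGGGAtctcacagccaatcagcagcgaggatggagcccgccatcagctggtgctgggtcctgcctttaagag
Acta2: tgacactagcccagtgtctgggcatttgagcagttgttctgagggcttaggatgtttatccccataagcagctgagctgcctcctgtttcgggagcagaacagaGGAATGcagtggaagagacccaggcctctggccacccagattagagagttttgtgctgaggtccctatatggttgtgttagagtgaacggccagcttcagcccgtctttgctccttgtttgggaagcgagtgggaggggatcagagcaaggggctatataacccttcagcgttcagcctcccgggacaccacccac
Ankrd1: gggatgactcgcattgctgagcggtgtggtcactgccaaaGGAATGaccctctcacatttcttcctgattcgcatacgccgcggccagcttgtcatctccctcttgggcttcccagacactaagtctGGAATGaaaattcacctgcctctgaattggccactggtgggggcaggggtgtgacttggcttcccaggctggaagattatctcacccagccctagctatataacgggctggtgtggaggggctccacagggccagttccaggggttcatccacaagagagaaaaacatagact

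TCCCGC is the core bound by E2F factors, CACGTG the E-box bound by MAX and its partners, and CATTCC the core bound by TEAD factors. The motifs were chosen after the members were seen. A window was given for 9 of the 10 genes at least 1 below the range and for 15 of the 21 at least 1 above it. TCCCGC stood in 3 of the 9 (33.3%) and 2 of the 15 (13.3%), against 19.8% of 27025 mouse windows. CACGTG stood in 2 of the 9, in Hormad1 at a pair of sites and in Rrp7a, and in 0 of the 15, against 7.09% of all windows. CATTCC stood in 6 of the 15 (40.0%), those of Acta2, Ankrd1, Anxa1, Cald1, Mcpt8 and Prrx1, and in 0 of the 9, against 14.6%. With so few windows these shares only describe the letters found, and no binding was measured.

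The genes furthest above the range were genes of mesenchymal cells, the actin cytoskeleton and the matrix. Prrx1, a homeobox transcription factor of mesenchyme, was at 6.37 on the B6 Blu array and at 3.23, 3.88 and 4.38 on the lowest, median and highest of the 10 arrays, with 9.09 and 8.96 in MEF. Its gap of 1.98 was the largest above the range, and the 10 arrays together spanned only 1.16. Has2, which makes hyaluronan, was at 6.59 against 3.70, 4.15 and 4.67, with 6.87 and 6.71 in MEF. B6 Blu thus lay 1.92 above the range of the 10 and just under the fibroblasts. Tnc, the matrix glycoprotein tenascin C, was at 7.72 against 4.58, 5.36 and 6.02, with 9.51 and 8.62 in MEF, and its highest reference values were both MPSVII ES arrays.

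Proteins of the contractile apparatus followed. Cnn1 (calponin) was at 6.93 against 3.88, 4.81 and 5.24, a gap of 1.69, with 7.88 and 7.53 in MEF. Tpm2 (β-tropomyosin) was at 7.42 against 4.29, 5.68 and 6.06, a gap of 1.36, with 8.79 and 8.75 in MEF. For both, the lowest of the 10 were the MPSVII ES arrays. Cald1 (caldesmon) was at 8.44 against 5.80, 6.48 and 7.23, with 11.3 and 10.8 in MEF. Acta2, smooth muscle actin, was at 8.27 and spread widely over the references, from 3.46 and 3.53 on the MPSVII ES arrays to 7.11 on clone 2 replicate 1, with a median of 5.50 over the 10 and 11.3 and 10.9 in MEF. Its gap of 1.17 was set by that one clone 2 array and was 2.06 without it.

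The same clone 2 array was the highest of the 10 for several other members. S100a4, a calcium-binding protein abundant in fibroblasts, was at 10.1 on the B6 Blu array and at 5.58, 6.78 and 8.98 over the 10, with 12.1 and 12.3 in MEF. Thy1, a surface glycoprotein of fibroblasts, was at 8.62 against 5.94, 6.34 and 7.49, with 10.8 on both MEF arrays. Without clone 2 replicate 1 the gap of S100a4 went from 1.15 to 2.28 and that of Thy1 from 1.13 to 2.10. An array of clone 2 was the highest of the 10 in 11 of the 25 rows, and one of MPSVII ES in 7. Over all 16661 rows these counts were 4304 and 3284, and clone 2 was the most frequent there too.

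Other members were genes of signalling, stress and adhesion. Rgs2, an inhibitor of G-protein signalling, was at 5.16 against 3.00, 3.35 and 3.95, with 8.56 and 8.70 in MEF. Anxa1, a phospholipid-binding annexin, was at 7.58 against 4.98, 5.77 and 6.29, with 11.1 and 10.9 in MEF. For these, B6 Blu was far closer to the pluripotent arrays than to the fibroblasts. Ankrd1, an ankyrin-repeat protein induced by mechanical stretch in heart and other cells, was at 5.26 against 3.32, 3.67 and 4.05, with 6.48 and 6.53 in MEF. The small heat-shock protein gene Cryab, the protocadherin Pcdh7 and the membrane protein Tm4sf1 had gaps of 1.18, 1.17 and 1.13. The other single-gene rows past 1 were Cflar, Tufm, Gng11, Parva and Anxa3, with gaps of 1.01 to 1.12.

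Mcpt8 stood apart from this group. It encodes a granule protease known from mouse basophils. It was at 7.17 on the B6 Blu array, at 3.83, 5.10 and 5.50 over the 10, and at only 5.57 and 5.72 in MEF. B6 Blu was thus the highest of all 13 arrays, 1.67 above the other pluripotent arrays and above both fibroblast arrays. MEF differed from the 10 by 0.70 ± 0.29 (SE), which did not pass the threshold (adjusted p = 0.0879, limma), although it did when clone 2 replicate 1 (0.0314), clone 6 replicate 1 (0.0241) or dim rows (0.0369) were left out. Besides Mcpt8, the MEF mean lay under B6 Blu in 3 more of the 25 rows, Tufm and a pair of rows with no single gene.

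**Figure D1:**
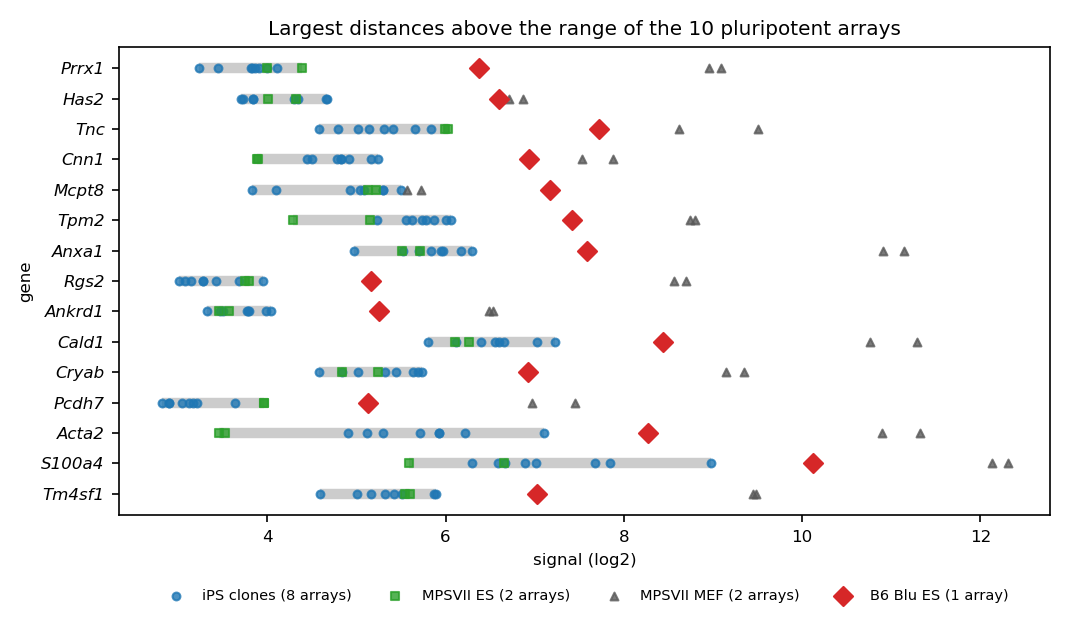
The 15 single-gene rows with the largest gaps above the range, as log2 signal per array: blue circles are iPS clone arrays, green squares MPSVII ES, grey triangles MEF, the red diamond B6 Blu and the grey bar the range of the 10. B6 Blu lies between that range and the MEF arrays in 14 of the 15 genes and above both in Mcpt8.

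The fibroblasts were the high end for nearly all of these rows. Over the 25 rows the median level was 4.65 for the mean of the 10, 6.73 on the B6 Blu array and 8.77 for the MEF mean, while over all rows these medians were 4.14, 4.19 and 4.39. The MEF mean was above B6 Blu in 21 of the 25 rows, and both MEF arrays were above all 10 pluripotent arrays in 22. Over all 16661 rows these counts were 9660 and 4069. Over all 1799 rows above the range they were 756 and 755, so the high level in MEF describes the 25 rows and not every member above. In a limma fit of MEF minus the mean of the 5 pluripotent lines, without B6 Blu, 14 of the 15 genes with the largest gaps were higher in MEF, by 2.65 to 5.79, at adjusted p between 2.385e-08 and 5.492e-06. The background of that fit is high: 26.8% of all rows were called higher in MEF and 8.01% lower, a split that depended on the scaling and was 3112 higher to 3325 lower after quantile normalization, 3608 to 3426 after median centring and 3837 to 2778 after loess, against 4461 to 1334 as deposited. This fit shares the 10 arrays with the choice of members, so the MEF levels are given beside the B6 Blu levels and no overlap is read from them.

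Across whole gene lists the same kinds of gene were high on the B6 Blu array. The lists hold some of the genes described above, so their counts are not independent of them. Gaps of at least 1 were seen for 3 fibroblast and matrix and 4 smooth muscle and cytoskeleton members. Of 37 fibroblast and matrix genes with a row, 18 lay above the range of the 10 and 0 below it, beside 10.8% and 6.81% of all rows, and the median difference from the mean of the 10 was 0.57 against 0.005 over all rows. Of 15 smooth muscle and cytoskeleton genes, 13 lay above and 0 below, with a median difference of 0.89. Gaps past 0.5 in these lists, apart from genes already named, were seen for Thbs1 (0.96), Cnn2 (0.71), Col12a1 (0.67), Ccn1 (0.64), Tagln (0.63) and Vim (0.57). On the B6 Blu array 36 of the 37 fibroblast and matrix genes were above the mean of the 10, though not all were above the range. Col1a1 (a difference from the mean of the 10 of 0.41), Sparc (0.63), Fn1 (0.26), Dcn (0.16) and Pdgfra (0.21) lay inside the range, whereas MEF exceeded the mean of the 10 by 1.43 to 4.79 in these genes. List members other than those of the naming rule are named here after their values were seen. Over 14 scalings and left-out arrays the counts above ranged from 17 to 22 and from 12 to 14, with 0 below throughout. The highest counts came without clone 2 replicate 1 and without both clone 2 arrays, where 2344 and 2565 of the 16661 rows lay above.

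Added up on the linear scale, the fibroblast and matrix list came to 3831 on the B6 Blu array, 1259 to 2535 over the 10 and 31593 and 24788 on the MEF arrays. The smooth muscle list came to 2913 on the B6 Blu array, 560 to 1405 over the 10 and 10912 and 8894 in MEF. B6 Blu therefore lay above every pluripotent array and far under both fibroblast arrays in each sum. Markers of another cell type were mixed. The blood and macrophage list, which is strong in MEF (14833 and 12976), came to 328 on the B6 Blu array and 345 to 582 over the 10. B6 Blu was the lowest of the 11 pluripotent arrays in that sum, but not gene by gene. Of its 19 genes 2 (10.5%) lay above the range and 3 (15.8%) below, beside 10.8% and 6.81% of all rows. Against the mean of the 10, 11 genes were higher and 8 lower, with a median difference of 0.05. C1qa, a complement gene of macrophages, was at 2.60 on the B6 Blu array, 3.19 to 4.57 over the 10, and 7.21 and 5.87 in MEF. The part of feeder or other fibroblast cells in the signal of these lists was not tested.

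**Figure D2:**
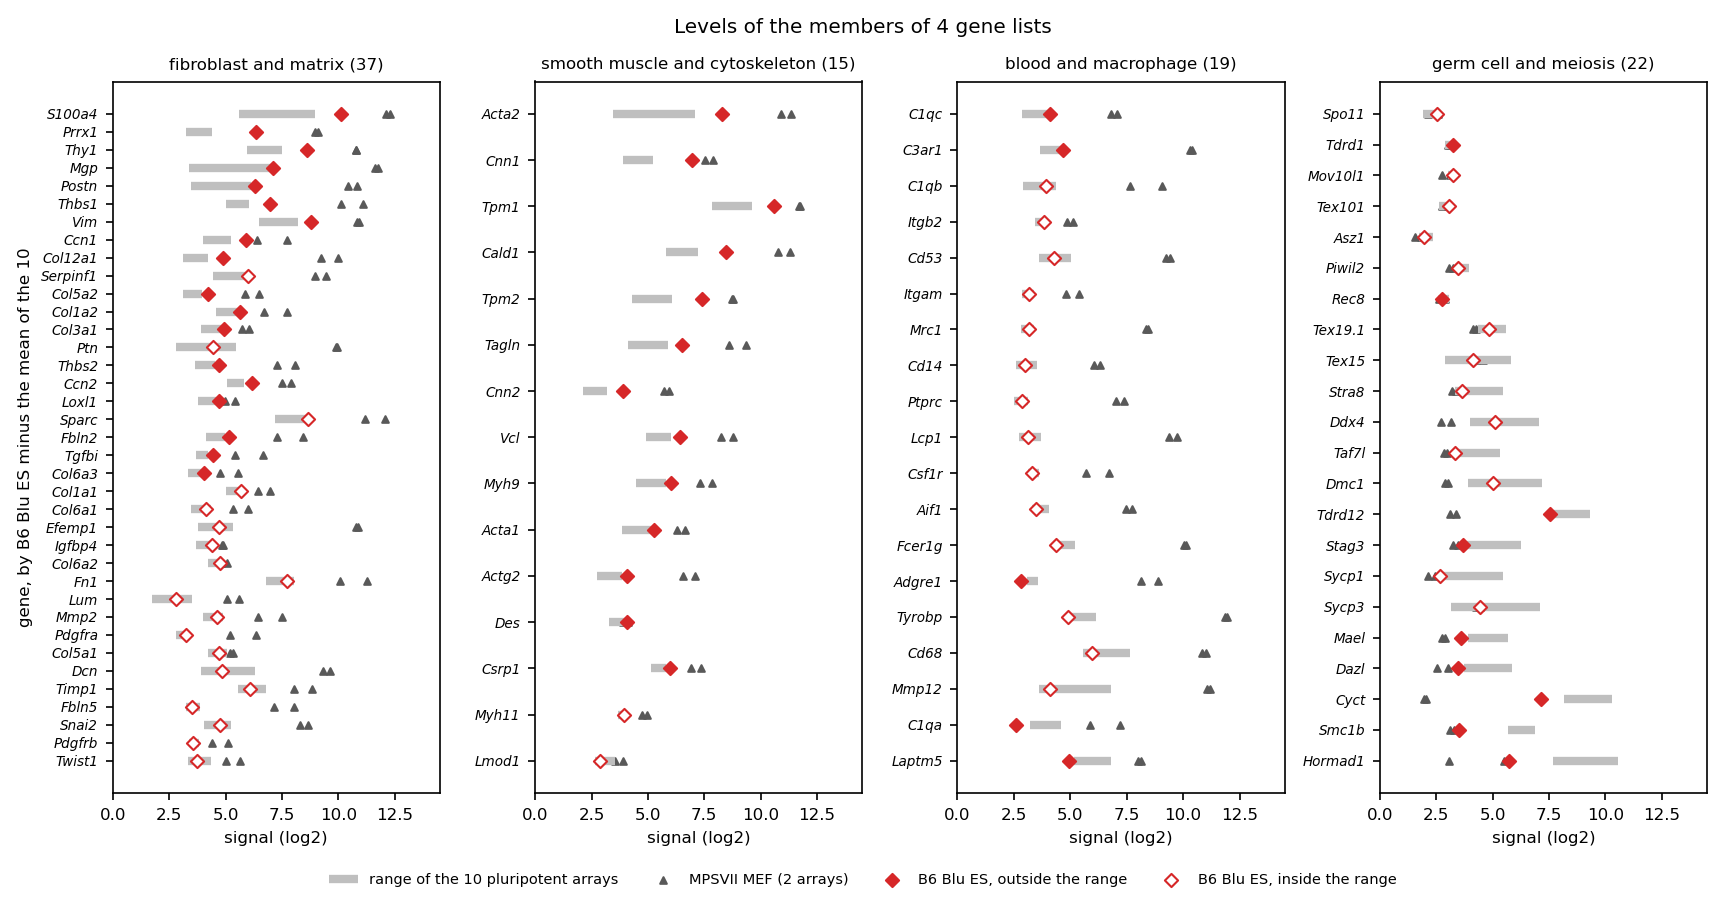
Log2 signal of every matched member of 4 gene lists, ordered by B6 Blu minus the mean of the 10; grey bars span the 10 pluripotent arrays, triangles are the 2 MEF arrays, and diamonds are B6 Blu, filled where it lies outside the bar. Filled diamonds lie right of the bars in 18 of 37 fibroblast and 13 of 15 smooth muscle genes, and left of them in 8 of 22 germ cell genes, while in the macrophage panel MEF lies far to the right and B6 Blu does not follow.

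Below the range, the widest gaps were larger than any above it. The 4 gaps of at least 2 were those of Fmr1nb, Usp26, Serpinb6c and Smc1b. All of these but Serpinb6c are genes of the testis or of meiosis. Fmr1nb, an X-linked gene beside Fmr1 that is expressed in testis, was at 3.40 on the B6 Blu array and at 7.10, 8.15 and 8.91 on the lowest, median and highest of the 10. Both MEF arrays, at 4.01 and 4.0, were also under the 10, and B6 Blu was the lowest of all 13. The gap was -3.70. Usp26, an X-linked deubiquitinase of the testis, was at 3.78 against 6.52, 7.03 and 7.80, with 2.86 and 3.09 in MEF, a gap of -2.74. In both genes B6 Blu lay within 1 log2 unit of the fibroblasts and far from every other pluripotent array.

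The meiotic genes Smc1b and Hormad1, whose start regions are printed above, were next among known germ-line genes. Smc1b, a cohesin subunit of meiotic chromosomes, was at 3.49 against 5.70, 6.46 and 6.87, with 3.10 and 3.28 in MEF, a gap of -2.21. Hormad1, a protein of the meiotic chromosome axis, was at 5.72 against 7.69, 8.56 and 10.6, a gap of -1.97. The MEF arrays disagreed for Hormad1, at 5.49 and 3.05. Cyct, the cytochrome c of the testis, was at 7.13 against 8.15, 9.69 and 10.3, a gap of -1.01. Here MEF, at 2.05 and 1.97, lay far under B6 Blu, so B6 Blu was between the fibroblasts and the other pluripotent arrays. Both arrays of clone 2 were the lowest of the 10 for Cyct (8.17 and 8.15).

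Among the other rows, Serpinb6c, a serpin of clade B, was at 5.06 against 7.45, 7.81 and 8.54, with 6.11 and 5.90 in MEF, and B6 Blu was the lowest of all 13 arrays. Lrrc2, a leucine-rich repeat gene, was at 5.76 against 6.94, 7.34 and 7.88, with 3.19 and 3.82 in MEF. Its gap of -1.18 went to -0.94 under quantile and loess normalization. Zfp706, a small zinc finger gene, and Rrp7a, which acts in ribosomal RNA processing, differed from the germ-line genes in that the fibroblasts were near the 10 pluripotent arrays. Zfp706 was at 4.04 against 5.44, 5.96 and 6.32, with 5.65 and 5.15 in MEF. Rrp7a was at 2.94 against 4.29, 5.02 and 5.50, with 5.17 and 5.43 in MEF. The hair keratin-associated gene Krtap1-5, near the low end of the array's scale, was at 1.69 against 2.71 to 3.89. For these last 3 genes B6 Blu was lower than each of the other 12 arrays.

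Over the 13 rows at least 1 below the range, the median level was 7.15 for the mean of the 10, 3.78 on the B6 Blu array and 3.94 for the MEF mean. Both MEF arrays lay under all 10 pluripotent arrays in 9 of the 13, and in 1139 of all 16661 rows. Over all 1135 rows below the range, both MEF arrays lay under the 10 in 221 and above them in 192. The low level in MEF thus describes the 13 rows and not every member below. The 10 arrays that define these rows also enter the limma fit, so no overlap is read from its counts. The fit called 8.01% of all rows lower in MEF (1334 rows, and 3325 after quantile normalization). Of the 10 single genes 7 were lower in MEF than in the 10, at limma adjusted p of at most 0.000101. Their differences ran from -7.48 ± 0.17 (SE) for Cyct to -1.84 ± 0.24 for Serpinb6c. The other 3 did not pass: Zfp706 (-0.50, adjusted p = 0.0651), Rrp7a (0.36, 0.311) and Krtap1-5 (-0.19, 0.595). Zfp706 passed under each of the 3 other scalings (limma adjusted p of 0.00394 to 0.00923).

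**Figure D3:**
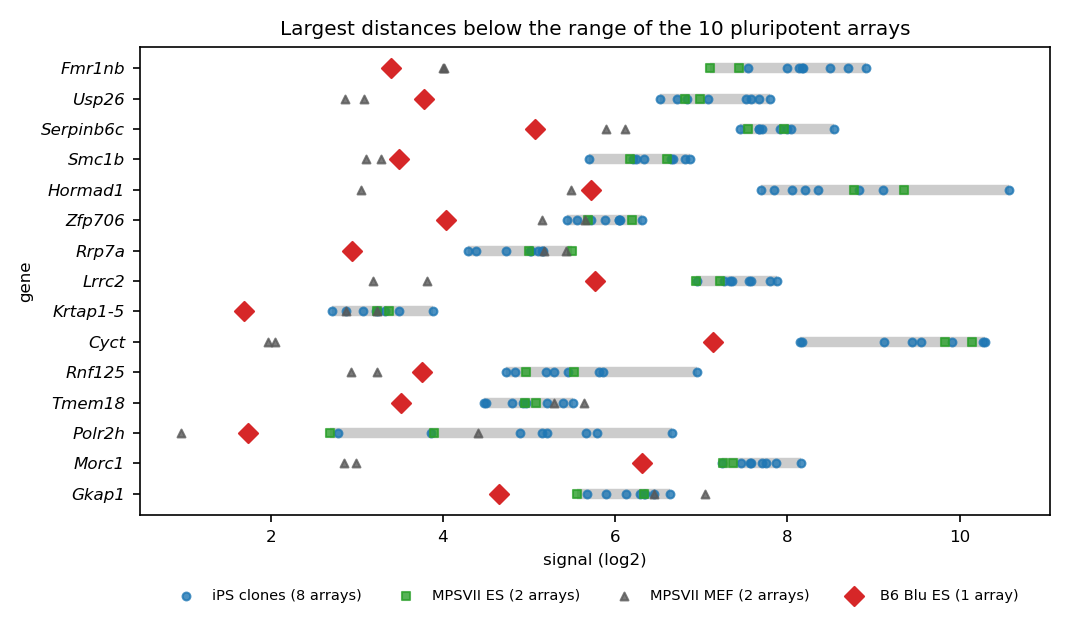
The 15 single-gene rows with the largest gaps below the range, with symbols as in the plot of the genes above it. B6 Blu lies left of every pluripotent array, beside the MEF arrays for Fmr1nb, Usp26 and Smc1b, far right of them for Cyct and Morc1, and left of all others for Zfp706 and Rrp7a.

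Some germ-line genes were low and others were not. Of 22 germ cell and meiosis genes with a row, 8 lay below the range of the 10 and 1 (Tdrd1, gap 0.04) above it, beside 6.81% and 10.8% of all rows. The other 13 lay inside, and the median difference of the list was -0.76. Over 14 scalings and left-out arrays 8 to 13 lay below. The highest count was with both clone 2 arrays left out, where 2469 of the 16661 rows lay below. Besides the 3 genes above, Dazl, Mael, Stag3, Tdrd12 and Rec8 lay below the range with gaps of -0.08 to -0.29. Dazl, an RNA-binding protein of germ cells, was at -1.52 from the mean of the 10, and Sycp3 and Sycp1, of the synaptonemal complex, were at -1.34 and -1.27 but inside the range. Ddx4, the germ-cell helicase, was -0.70 from the mean and inside. Summed on the linear scale the list came to 642 on the B6 Blu array, 1413 to 2968 over the 10 and 225 and 214 in MEF, so B6 Blu was under every other pluripotent array and above both fibroblast arrays. Morc1, which silences transposons in male germ cells and is on no list, lay 0.92 below the range at 6.32 (7.24, 7.57 and 8.15 over the 10; 2.85 and 2.99 in MEF). Of 19 testis genes 4 (21.1%, beside 6.81% of all rows) lay below and 0 above: Usp26, Cyct (which is on both lists), Tktl2 and Tex11. Prm1, Prm2, Tnp1 and Akap4, genes of late sperm formation, lay inside the range.

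The pluripotency genes themselves were mostly inside the range. Against the 2 MPSVII ES arrays alone, 13 of the 16 core genes lay below, where 6678 of the 16661 rows did. Against all 10 arrays, 2 of the 16 lay below and 0 above, a share of 12.5% beside 6.81% of all rows, with a median difference of -0.41. Nanog was at 8.12 against 8.57, 9.26 and 9.67, a gap of -0.45, with 4.58 and 4.22 in MEF. Its lowest reference, clone 2 replicate 2, was 0.45 away, beside an SD of 0.32 within lines. Tdgf1, the Nodal co-receptor, was below by 0.06. Of 13 genes of naive pluripotency, Tfcp2l1 (-0.30) and Tbx3 (-0.32) lay below the range and 0 above. Klf4 was at 5.73, inside (4.73, 5.32 and 5.92), with 5.75 and 5.62 in MEF. Of 13 genes of the primed epiblast, which succeeds the naive state in the embryo, 3 lay above (Lef1, Dnmt3b and Pou3f1, gaps 0.19 to 0.28) and 0 below. Beside this stand 10.8% and 6.81% of all rows. The median difference of the primed list was 0.37. Fgf5 and Otx2, both widely used marks of that stage, were inside, at 0.37 and -0.10 from the mean. Of 11 genes of the 2-cell stage and early embryo 1 (Pramel6) lay below. Core and naive medians were closer to 0 under quantile normalization (-0.23 and -0.22). With both clone 2 arrays left out, 6 of the 16 core genes lay below, with a median difference of -0.59, where 2469 of the 16661 rows did. Over the 14 scalings and left-out arrays 2 to 6 core genes lay below.

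**Figure D4:**
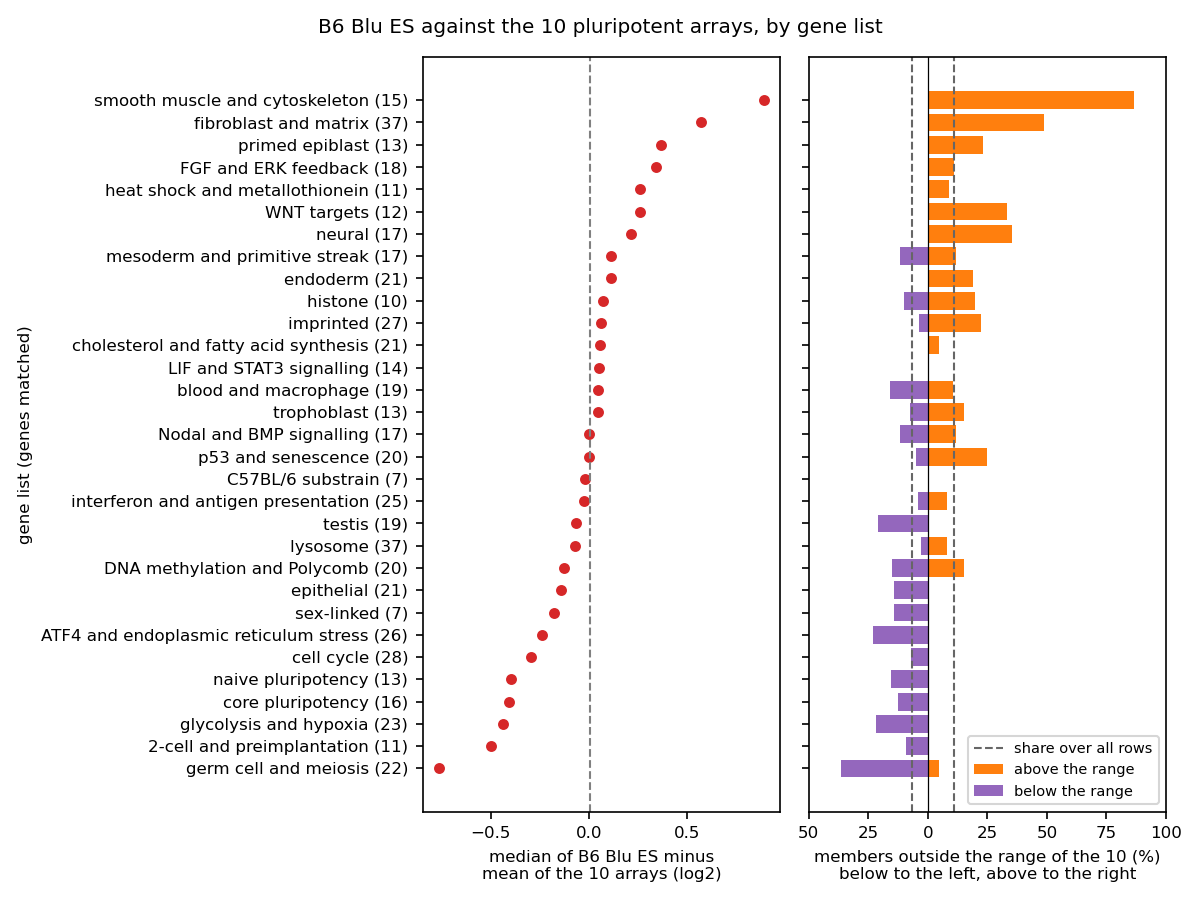
Left, the median over list members of B6 Blu minus the mean of the 10 (log2), for 31 gene lists with the number of matched genes in brackets. Right, the percent of members above (orange) and below (purple) the range of the 10; dashed lines mark all rows (10.8% and 6.81%, and a median of 0.005 on the left), and the smooth muscle, fibroblast and germ cell lists lie furthest from them.

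Some metabolic genes were low. Of 23 glycolysis and hypoxia genes 5 (21.7%, beside 6.81% of all rows) lay below the range and 0 above, with a median difference of -0.44. From 5 to 11 lay below over the 14 scalings and left-out arrays. The 11 were found with both clone 2 arrays left out, where 2469 of the 16661 rows lay below. Against MPSVII ES alone 15 lay below, where 6678 of the 16661 rows did. The 5 were Pfkp, a phosphofructokinase, Pkm, Ankrd37, Egln3 and Ero1a. Pfkp was at 6.27 against 7.15, 7.97 and 8.25, with 6.86 and 6.20 in MEF, a gap of -0.88. B6 Blu was at the level of the fibroblasts in that gene. Of 26 genes of the ATF4 and endoplasmic reticulum stress response, 6 (23.1%) lay below and 0 above: Asns, Creld2, Psat1, Nupr1, Ddit3 and Vldlr. Asns, asparagine synthetase, was at 7.51 against 8.16, 8.78 and 9.70, with 7.41 and 7.15 in MEF. The folding genes Hspa5 and Hsp90b1 were inside the range, at -0.25 and -0.23 from the mean. Tet2, which oxidises methylated DNA in ES cells, was at 5.56 against 6.15, 7.39 and 8.34, with 5.49 and 4.98 in MEF. Its gap of -0.60 was smaller than its SD of 0.71 within lines. The methyltransferases Dnmt3a and Dnmt3b lay 0.33 and 0.26 above the range, and Dnmt3b had an SD of 0.32 within lines.

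Of the genes tied to the labelled genotype and strain, Gusb was higher on the B6 Blu array, and those of the substrain list lay inside the range. Gusb was at 4.50 on the B6 Blu array, 3.47, 3.76 and 4.25 over the 10, and 5.07 and 3.98 in MEF. The B6 Blu value lay 0.76 above the mean of the 10, beside an SD of 0.17 within lines. B6 Blu was the highest of the 11 pluripotent arrays, by 0.25, and by 0.69 without clone 1 replicate 2, the next highest. The MEF arrays differed from one another by more than that. Nnt, a mitochondrial transhydrogenase in which the substrain C57BL/6J carries a deletion, was at 5.14 on the B6 Blu array and inside the range (4.42, 5.14 and 5.90). All 7 genes of the list of C57BL/6 substrain differences were inside.

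Sex-linked rows divided the references. Eif2s3y, a Y-linked translation factor, was at 4.80 on the B6 Blu array, 6.41 and 6.31 on the MPSVII ES arrays, 1.52 to 1.91 on the 8 clone arrays and 1.79 and 1.81 in MEF. B6 Blu lay inside the range of the 10 only because the MPSVII ES arrays were high, and was far above every clone. Kdm5d, also Y-linked, did not show the same order: it was at 2.31 on the B6 Blu array, 1.94 to 2.33 on the clones and 3.44 and 3.57 in MPSVII ES. Among 473 rows on the X chromosome, B6 Blu lay below the range in 67, or 14.16%, against 4.14% to 8.67% on the 19 autosomes. Above the range the X (9.30%) lay within the autosomes (8.43% to 13.6%). Of the 67 rows 61 had gaps under 0.5, although their median difference from the mean of the 10 was -0.64. The other 6 were Fmr1nb, Usp26, Ogt (-0.71), Mcf2 (-0.66), Pola1 (-0.58) and Fancb (-0.51).

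The X excess depended on which arrays served as reference. Against the 8 clone arrays alone, 19.9% of X rows lay below, with 5.72% to 9.11% on autosomes. Against the 2 MPSVII ES arrays alone the X share of 37.6% lay within the autosomes (35.4% to 48.0%). It lay within them also under loess normalization (12.7% beside 7.73% to 13.3%) and with both clone 2 arrays left out (17.97% beside 12.4% to 20%). Kdm6a, an X-linked demethylase gene that escapes X inactivation, was below the range by 0.17, and Eif2s3x, Kdm5c and Ddx3x, which also escape it, were inside.

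**Figure D5:**
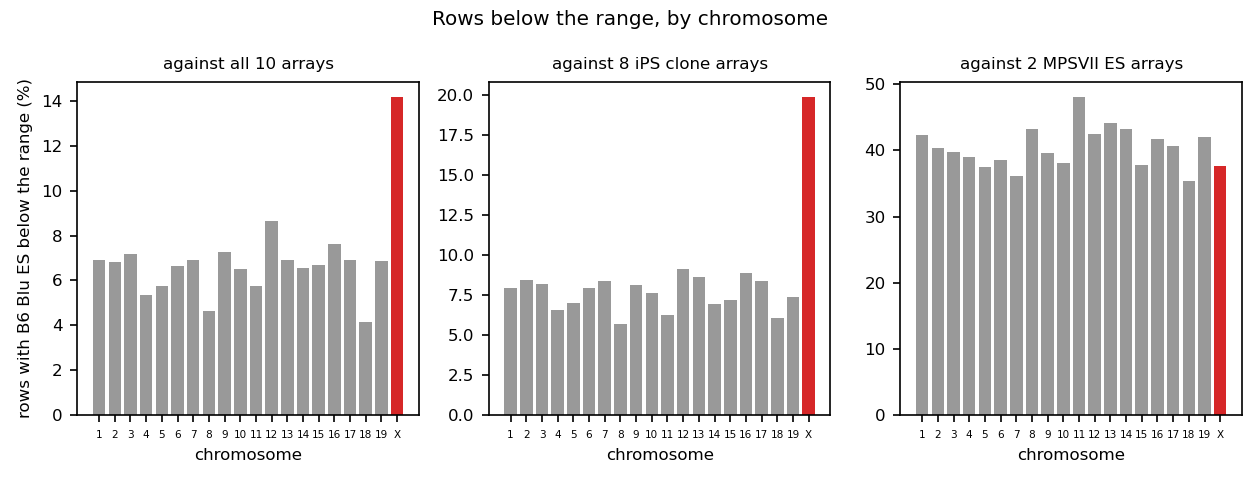
Percent of the rows of each chromosome in which B6 Blu lies below the reference range, against all 10 arrays, the 8 clone arrays and the 2 MPSVII ES arrays; the y axes differ in scale. The X (red) stands above all autosomes (grey) at 14.16% and 19.9% in the first 2 panels and within them at 37.6% in the last.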

How the data were processed

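Total RNA of 13 samples was amplified by the NuGen WT-Ovation Pico method and hybridised to exon arrays, per the labels' protocols. The deposited values are log2 signal made by the authors with Affymetrix Expression Console and RMA, per the submitters' processing notes, with versions not given in the sources used here. RMA shares 1 reference distribution over all arrays, so each array's values depend on the others. Signal files and detection calls were not used here.

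Of 23238 rows, 6577 low-numbered rows with no annotated gene were left out as controls. Of the other 16661, 14939 are annotated to a single gene, 989 to more than 1 and 733 to none. Names and chromosomes were taken from RefSeq on GRCm38.p6, which held the Entrez numbers of 14884 rows and changed 0 symbols. No coordinates of the array rows were used. Where a gene had several rows (131 symbols), the row of highest mean was taken. The SD within lines pools the 2 arrays of each of the 5 pluripotent lines. MEF minus the mean of these lines was fitted with limma 3.58.1 in R 4.3.3 on 12 arrays (1 mean per line, 6 residual degrees of freedom, eBayes), and a row was called at a Benjamini-Hochberg adjusted p under 0.05 over all rows. The fit was tested on simulated data. The p-values measure the spread between the 2 arrays of a line, which may be technical, since no label says that replicates were separate cultures. Spread between lines does not enter them. The number of arrays limits the precision.

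The 31 gene lists hold 710 genes, 552 of them matched to a row. Genes were named by rule: the 15 largest gaps each way among single-gene rows, up to 4 members of a list with gaps of at least 0.5, and the reprogramming factors, Nanog, Gusb, Nnt and sex-linked genes (Ddx3y and Xist had no matched row). The members, lists and rules were chosen with earlier results of these data known. Alternatives were quantile, median and loess (span 0.3) scaling, rows with a mean under 5 left out, rows with 1 symbol, all rows, each array left out, both clone 2 arrays left out, either kind of reference alone, gap thresholds of 0.5 and 2 and, for MEF, a replicate block and a trended, robust prior. Shares on the X, list counts under these settings and the promoter motifs were added after seeing the data.

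Replicate numbers did not pair arrays: over 15 pairs of lines the deviations of same-numbered arrays correlated at r = -0.24 to 0.24, over 0.1 in 4.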

Additional observations from a re-analysis of the deposited data

How the results depend on the processing

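Above the range there were 230 members instead of 1799 with dim rows left out and 5814 against MPSVII ES alone, and 1799 became 1859 to 2344 with 1 array left out. Below the range the 1135 became 1709 under loess, 439 without dim rows, 1807 with all rows of the table, 2469 without both clone 2 arrays and 6678 against MPSVII ES alone; leaving out 1 array gave 1179 to 1795, the highest without clone 2 replicate 2. The 25 rows at least 1 above became 12 without dim rows, 46 with all rows, 46 without both clone 2 arrays, 168 against MPSVII ES alone and 25 to 39 with 1 array left out, the highest without clone 2 replicate 1; a gap of 0.5 gave 143 and a gap of 2 gave 0. The 13 rows at least 1 below became 44 with all rows, 41 without both clone 2 arrays, 305 against MPSVII ES alone, 21 against the clones alone and 13 to 19 with 1 array left out; gaps of 0.5 and 2 gave 79 and 4. Fewer reference arrays narrow the range by construction. Under each of the 3 other scalings all 25 rows stayed above the range and all 13 below it. The median of all rows, B6 Blu minus the mean of the 10, was between -0.04 and 0.00 under the other scalings.

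The MEF fit called 5795 rows, 2851 of 4856 with dim rows left out, 5637 with a replicate block, and 4050 to 6110 with 1 array left out. The replicate block changed no call of a named gene. The call of Gusb (0.79, limma adjusted p = 0.0242) was lost after quantile, median and loess scaling (0.0965, 0.0801 and 0.0604) and without MEF replicate 1 (0.499). Against MPSVII ES alone, where 5814 of 16661 rows lay above and 6678 below, the fibroblast list had 30 members above and 3 below, the germ cell list 17 below and 3 above, and the core pluripotency list 13 below and 2 above; the cause was not tested. Without detection calls, the order of values near the low end of the scale, such as those of Krtap1-5 and Tufm, is uncertain.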

Other observations

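Genes of early neural development were above the range more often than they were below it. Of 17 neural genes 6 lay above and 0 below, beside 10.8% and 6.81% of all rows, with a median difference of 0.21. The transcription factors Pax6, Sox1 and Sox11 had gaps of 0.31, 0.35 and 0.25, the intermediate filaments Nes and Nefl 0.40 and 0.24, and Gfap 0.03. MEF minus the mean of the 10 was 1.70 for Nes, and -0.33 to 0.27 for the other 5. Of 12 WNT targets 4 (Axin2, Sp5, Lef1 and Cdx1) lay above and 0 below, with gaps of 0.03 to 0.28, and of 18 FGF and ERK feedback genes 2 lay above and 0 below (median difference 0.34).

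Of 27 imprinted genes 6 (22.2%) lay above the range and 1 (3.7%) below, beside 10.8% and 6.81% of all rows. Ndn, a paternally expressed gene of the Prader-Willi region, was at 5.51 on the B6 Blu array and 3.08, 4.10 and 5.00 over the 10, with 6.40 and 6.72 in MEF. Its gap of 0.51 was smaller than its SD of 0.59 within lines. Igf2, a fetal growth factor, was at 5.22 against 3.36, 4.15 and 4.59, with 5.78 and 5.32 in MEF. H19, the neighbour of Igf2 that is expressed from the other parental copy, was 1.01 above the mean of the 10 and inside the range. Magel2, Rtl1, Gnas and Asb4 lay above by 0.09 to 0.29, and Usp29 below by 0.46.

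The remaining lists are given beside shares of 10.8% above and 6.81% below over all rows. Their counts above and below were 4 and 0 of 21 endoderm genes, 2 and 2 of 17 mesoderm genes, 2 and 1 of 13 trophoblast genes, and 2 and 2 of 17 Nodal and BMP genes. They were 0 and 0 of 14 LIF and STAT3 genes, 0 and 2 of 28 cell cycle genes, 5 and 1 of 20 p53 and senescence genes, and 0 and 3 of 21 epithelial genes. They were 3 and 1 of 37 lysosome genes, 2 and 1 of 25 interferon genes, 1 and 0 of 21 cholesterol and fatty acid genes, and 1 and 0 of 11 heat shock and metallothionein genes. They were 2 and 1 of 10 histone genes, 3 and 3 of 20 DNA methylation and Polycomb genes, and 0 and 1 of 7 sex-linked genes. The cell cycle count below ranged from 2 to 13 over the 14 scalings and left-out arrays. It was 13 with both clone 2 arrays left out, where 2469 of the 16661 rows lay below. Against MPSVII ES alone it was 22, where 6678 of the 16661 rows lay below. The p53 median was -0.0005 as deposited and 0.14 after quantile normalization.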
